A study of Mus musculus with 12 samples.

Results

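The middle stretch of the mouse class I odorant receptor (OR) cluster, from Olfr606 to Olfr650, was followed in mice without the J element, an enhancer of class I OR genes. Members were chosen by name and position, with no measured value. A probe set was included when its first symbol in the platform annotation was an Olfr number of the range Olfr606 to Olfr650, when it lay in the class I cluster on chromosome 7, and when that symbol was not a pseudogene's. The rule found 36 probe sets with 34 distinct first symbols, among the OR probe sets that the study tested and 35556 probe sets in all. Olfr617 and Olfr620 were each the first symbol of 2 probe sets. A single symbol was attached to 34 members, whereas the Olfr612/Olfr611 and the Olfr620/Olfr624 probe sets listed 2 genes each. The study places the Olfr620/Olfr624 probe set at the pseudogene Olfr621-ps1 and the second Olfr617 probe set at Olfr625-ps1, and both places are given with the names here.

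RNA came from the main olfactory epithelium (MOE) of single mice, 6 ΔJ and 6 wild-type, and was hybridised to Affymetrix Mouse Gene 1.0 ST arrays, 1 for each mouse. ΔJ mice were homozygous for a CRISPR-Cas9 deletion of the J element made in B6C3F1 eggs, and wild-type mice were their littermates. The labels give the strain of every mouse as C57BL/6, and the deletion came from a single mutant line, backcrossed to C57BL/6 after it was made. Per the study, heterozygotes from the second generation of that backcross were used for the array work. On the arrays it compares ΔJ mice, defined as homozygous, with wild-type littermates, so those heterozygotes were not the mice hybridised. By sex there were 3 male and 3 female ΔJ mice, against 2 male and 4 female wild-type mice. All were taken at postnatal day 30 except 1 ΔJ and 2 wild-type mice at day 33. Levels are log2 signals minus the 75th percentile of the array. The genes that define mature olfactory sensory neurons (OSNs) were bright in both genotypes, with Omp, the olfactory marker protein, at 3.95 in wild-type and 3.98 in ΔJ. None of the 5 mature OSN markers passed the test in limma over every probe set, none had an unadjusted p under 0.05, and the mean level of the 5 was 3.82 to 3.98 in wild-type mice and 3.68 to 3.99 in ΔJ mice. No marker list (immature neurons, basal, sustentacular, respiratory and gland, immune, blood, vomeronasal, dorsal or ventral zone) held a gene that passed or had an unadjusted p under 0.05 (limma over every probe set). The 2 measured blood markers had a mean level of -2.28 to -1.70 in wild-type and -2.40 to -0.80 in ΔJ mice, and their part in the results was not tested.

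ORs are G protein-coupled receptors that bind odorants at the cilia of OSNs. Each OSN transcribes a single OR gene from a single allele, and enhancers bound by homeodomain and Ebf factors take part in that choice. Class I ORs resemble the receptors of fish, lie together in a single cluster and are used mostly by OSNs of the dorsal MOE. The β-globin genes, which encode chains of haemoglobin and have no known role in smell, lie inside this cluster.

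All members lie on chromosome 7. In GRCm38 they ran from the start of Olfr606 to the end of Olfr649 over 0.739 Mb, at 0.941 to 1.68 Mb from the J element. The lower coordinates of Olfr630 and Olfr631 are 161 kb apart, with the β-globin genes and other OR genes between them. This gap divides the members into 21 on the J side, Olfr606 to Olfr630, and 15 on the far side, Olfr631 to Olfr649. The bases before the annotated starts are printed for 6 genes on which the comparisons turn. Olfr639 and Olfr640 are neighbours with unlike differences between genotypes, Olfr611 and Olfr612 are nearly identical neighbours that shared a probe set, Olfr607 fell most on the J side, and Olfr631 is the first member beyond the β-globin genes. The sequences are those of RefSeq on GRCm38.p6, 5′ to 3′ on the strand of the gene. The windows are Olfr639 at chr7:104012698-104012950 (minus strand), Olfr640 at chr7:104022314-104022566 (minus), Olfr611 at chr7:103518380-103518632 (minus), Olfr612 at chr7:103539230-103539482 (minus), Olfr607 at chr7:103464124-103464376 (minus) and Olfr631 at chr7:103914812-103915061 (plus). Capitals mark the ATG start codon at the end of a sequence, other than in Olfr631, whose annotated start is not a start codon, and, within each, matches to the motifs named after the sequences.
Olfr639: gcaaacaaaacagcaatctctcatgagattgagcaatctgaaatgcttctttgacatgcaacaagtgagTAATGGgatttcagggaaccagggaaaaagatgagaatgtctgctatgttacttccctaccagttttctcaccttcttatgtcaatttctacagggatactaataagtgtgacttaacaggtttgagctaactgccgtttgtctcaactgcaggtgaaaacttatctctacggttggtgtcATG
Olfr640: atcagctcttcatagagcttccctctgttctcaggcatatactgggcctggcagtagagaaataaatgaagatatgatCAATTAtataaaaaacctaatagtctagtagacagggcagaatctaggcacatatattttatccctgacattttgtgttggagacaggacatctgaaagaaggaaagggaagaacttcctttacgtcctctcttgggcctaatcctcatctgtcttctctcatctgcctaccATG
Olfr611: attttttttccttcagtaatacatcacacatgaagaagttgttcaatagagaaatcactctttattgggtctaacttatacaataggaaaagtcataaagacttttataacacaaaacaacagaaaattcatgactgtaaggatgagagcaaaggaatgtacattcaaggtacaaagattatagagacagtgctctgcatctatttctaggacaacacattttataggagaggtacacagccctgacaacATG
Olfr612: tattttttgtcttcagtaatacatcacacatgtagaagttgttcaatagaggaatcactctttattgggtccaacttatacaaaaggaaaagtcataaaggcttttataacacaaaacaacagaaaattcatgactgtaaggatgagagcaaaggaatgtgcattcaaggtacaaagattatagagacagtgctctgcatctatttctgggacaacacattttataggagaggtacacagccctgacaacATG
Olfr607: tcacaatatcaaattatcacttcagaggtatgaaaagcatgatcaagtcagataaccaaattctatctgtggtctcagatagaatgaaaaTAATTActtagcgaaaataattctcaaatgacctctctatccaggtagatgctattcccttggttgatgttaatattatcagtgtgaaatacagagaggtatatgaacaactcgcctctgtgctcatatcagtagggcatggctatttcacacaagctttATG
Olfr631: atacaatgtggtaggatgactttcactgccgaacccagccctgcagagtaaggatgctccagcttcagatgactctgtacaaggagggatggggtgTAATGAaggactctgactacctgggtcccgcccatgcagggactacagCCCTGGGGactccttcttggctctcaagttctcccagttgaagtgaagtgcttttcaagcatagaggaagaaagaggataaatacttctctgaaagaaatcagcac

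A window was found for 30 of the 34 genes. Olfr608, Olfr617, Olfr632 and Olfr633 are named only. In 24 of the 30 the annotated start was the start codon itself, so that the printed bases precede the coding sequence and need not be those before the first transcribed base. Over the 250 bases, Olfr611 and Olfr612 were identical at 239 positions, with a longest shared run of 59 bases. Olfr639 and Olfr640 were identical at 74 of 250 positions, and their longest shared run was 8 bases.

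The homeodomain motif was searched on both strands in 4 forms that begin with TAAT and end with TA, TG, GA or GG. At least 1 form was found before 18 of the 30 genes, 60.0%, against 22.8% of all 32851 RefSeq windows of that length. The share was 9 of the 17 genes called decreased and 9 of the 13 not called. Windows were not matched for base composition, nor for whether the annotated start was a start codon. Nearly identical windows, such as those of Olfr611 and Olfr612, were counted separately. TAATTA stood before Olfr607, Olfr609 and Olfr649, in 10.0% of the members' windows and 4.84% of all windows. TAATTG stood before 9 genes, against 7.17% of all windows. TAATGA was before 8 genes, 26.7% against 8.59% of all windows. TAATGG was before 3 genes, 10.0% against 6.57%. The forms share letters, and those of Olfr609 overlapped in part. In the printed bases, Olfr639 holds the form that ends with GG and Olfr640, on the other strand, the form that ends with TG. The core of the Ebf site, CCCNNGGG, was found only before Olfr631, in 3.33% of these windows against 11.8% of all. AAACTTTTC, a motif that the study describes in the J element, was before none of the 30 genes and in 0.362% of all windows.

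Without the J element, 20 of the 36 members were decreased and none increased (limma, fold change beyond 1.3 and Benjamini-Hochberg adjusted p under 0.05 over the OR probe sets). The same calls took 6.18% of all OR probe sets for a decrease and 0.0824% for an increase. A further 5 members had a difference beyond 1.3-fold downward that did not pass, a class that held 1.15% of all OR probe sets, and 11 were within 1.3-fold. None of the 3 members with a positive difference had an unadjusted p under 0.05. The log2 fold change was negative in 33 members, against 65.1% of all OR probe sets. The median log2 fold change was -0.51 over the members and -0.05 over all OR probe sets. The signal of the 20 decreased members was 30.5% to 74.3% of the wild-type signal (median 63.8%). More than 2-fold was lost in 7 of them. In RNA of whole tissue, fewer OSNs with a receptor and less receptor RNA per OSN cannot be told apart. When the fit took in every probe set of the array, 10 members passed, while 0.129% of all probe sets were called decreased and 0.00562% increased in that fit.

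The 2 genotypes were apart in most decreased members. In 18 members the highest ΔJ mouse was below the lowest wild-type mouse, which held for 5.36% of all OR probe sets, and all 18 were among the 20 called. Olfr615 and Olfr623 were the decreased members whose genotypes overlapped. Averaged over the 36 members, the level was -2.01 to -1.53 in the wild-type mice (mean -1.83, SD 0.182) and -2.66 to -2.21 in the ΔJ mice (mean -2.42, SD 0.177). No ΔJ mouse reached the lowest wild-type mouse in this mean.

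**Figure D1:**
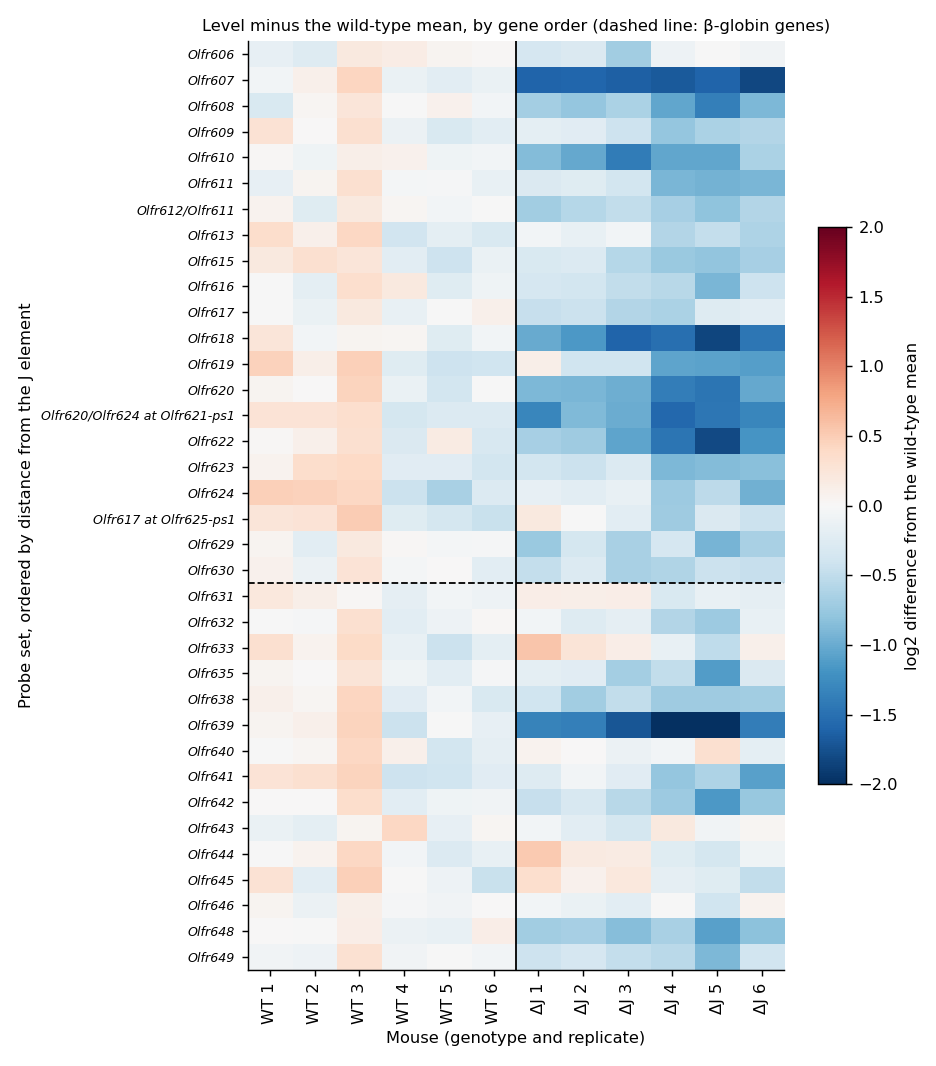
Colour gives the log2 level of each probe set (rows, ordered by distance from the J element) in each mouse (columns, 6 wild-type and 6 ΔJ) minus the wild-type mean of that probe set, and the dashed line marks the β-globin genes. The rows of Olfr607, Olfr618 and Olfr639 are dark in all 6 ΔJ mice, while Olfr633, Olfr640 and Olfr644 stay near the wild-type mean in both genotypes.

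Olfr639, on the far side, fell most. Its level was -1.11 at the lowest, -0.66 at the median and -0.23 at the highest in wild-type mice, and -3.12, -2.22 and -2.01 in ΔJ mice. The highest ΔJ mouse was below the lowest wild-type mouse. The log2 fold change was -1.71 (SE 0.195, 95% interval -2.13 to -1.30, limma adjusted p = 1.66e-05), which left 30.5% of the wild-type signal.

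Olfr607 is the second member counted from the J element. Wild-type mice lay at -1.48, -1.37 and -0.85 (lowest, median, highest) and ΔJ mice at -3.10, -2.89 and -2.86. The ΔJ mice were closer together than the wild-type mice, with an SD of 0.0891 against 0.235, and the groups did not overlap. The log2 fold change of Olfr607 was -1.65 (SE 0.117, limma adjusted p = 1.41e-07). It kept within -1.69 to -1.57 when any 1 mouse was left out.

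Olfr618 came next, with a log2 fold change of -1.42 (SE 0.141, limma adjusted p = 3.55e-06). Its wild-type mice read -2.22, -1.98 and -1.73, and its ΔJ mice -3.82, -3.45 and -2.98. The groups did not overlap. Its ΔJ mean of -3.40 lay in the range that a gene absent from females gave in female mice (described with Olfr624), and whether background limited the size of its fall was not tested.

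The Olfr620/Olfr624 probe set at Olfr621-ps1 lists 2 intact genes but is placed by the study at a pseudogene, so its signal cannot be given to 1 of them. It read -1.93, -1.58 and -1.24 in wild-type and -3.16, -2.89 and -2.46 in ΔJ mice. The groups were apart, with a log2 fold change of -1.25 (SE 0.161, limma adjusted p = 6.57e-05). The separate Olfr620 probe set fell by 1.11 on the log2 scale, and the separate Olfr624 probe set was at -0.46 without passing.

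Olfr622 varied more among ΔJ mice than among wild-type mice. Wild-type mice lay at -0.94, -0.55 and -0.30, and ΔJ mice at -2.42, -1.74 and -1.29 (SD 0.257 and 0.437). The groups did not overlap, and the log2 fold change was -1.15 (SE 0.187, limma adjusted p = 0.000565).

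The other decreased members on the J side were Olfr610 (log2 fold change -1.002), Olfr608 (-0.90), the Olfr612/Olfr611 probe set (-0.63), Olfr623 (-0.61), Olfr611 (-0.61), Olfr629 (-0.61), Olfr615 (-0.56), Olfr616 (-0.51), Olfr630 (-0.48) and Olfr617 (-0.43). On the far side they were Olfr648 (-0.79), Olfr642 (-0.66), Olfr638 (-0.62) and Olfr649 (-0.51). Of these, Olfr623 had the largest adjusted p, 0.0336 in limma. Olfr617 was the called member nearest to the fold threshold, at 74.3% of the wild-type signal. Its wild-type mice read -2.69, -2.54 and -2.34 and its ΔJ mice -3.16, -2.98 and -2.75, so the groups lay side by side without overlap (SE 0.109, limma adjusted p = 0.0225). The calls of Olfr611, Olfr615, Olfr616, Olfr617 and Olfr623 were each lost when certain single mice were left out, whereas the other 15 held. Just outside the fold threshold were Olfr613 and Olfr632, each at -0.32.

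**Figure D2:**
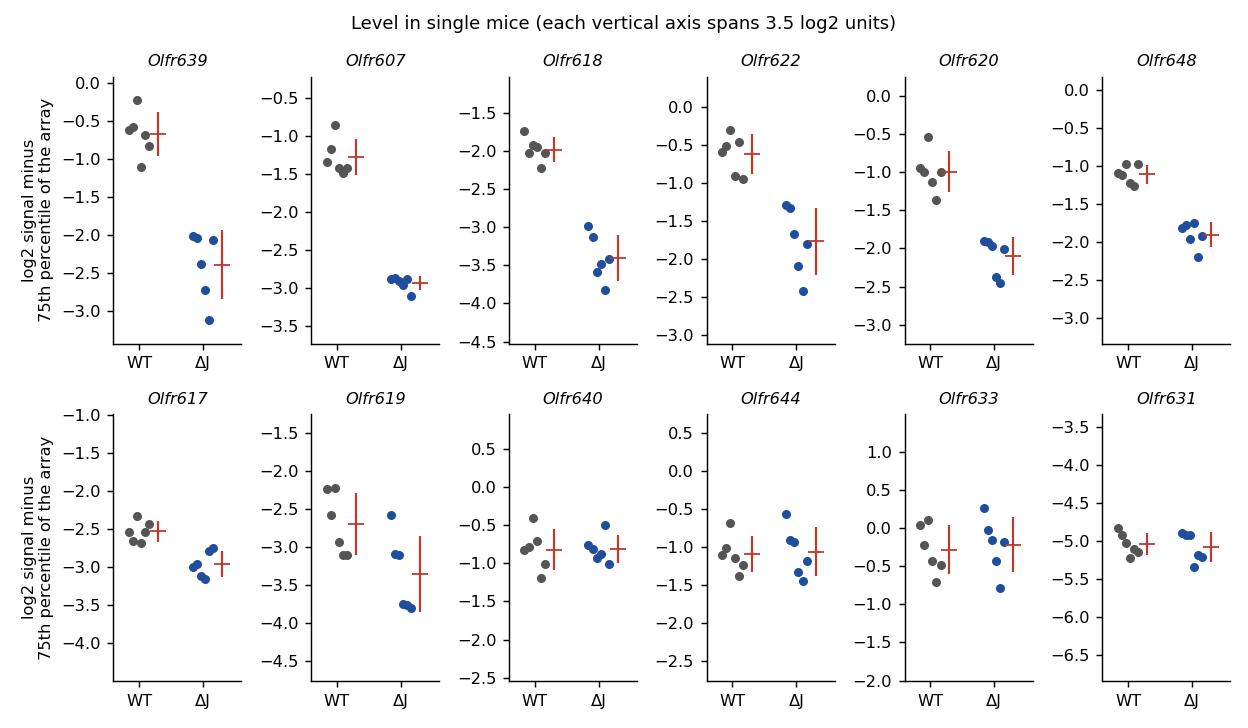
Points are single mice (6 wild-type in grey, 6 ΔJ in blue), the vertical axis is the log2 signal minus the 75th percentile of the array, and the red cross gives the mean and SD of each genotype. Groups are apart in Olfr639, Olfr607, Olfr618, Olfr622, Olfr620, Olfr648 and Olfr617, overlap in Olfr619, and share 1 range in Olfr640, Olfr644, Olfr633 and Olfr631.

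A further 5 members, Olfr619 (-0.65), Olfr641 (-0.50), Olfr635 (-0.50), Olfr609 (-0.47) and Olfr624 (-0.46), lay below the 1.3-fold line but did not pass. Olfr619 had the largest difference of them. Its wild-type mice read -3.11, -2.76 and -2.22 and its ΔJ mice -3.79, -3.43 and -2.58, so that 3 of the 6 ΔJ mice were below the lowest wild-type mouse. The log2 fold change of Olfr619 was -0.65 (SE 0.229, limma adjusted p = 0.178). Its level was also 0.78 log2 units lower in replicates 4 to 6 than in replicates 1 to 3 of both genotypes together (limma adjusted p = 4.73e-05), and the test with genotype alone counts that shift as spread. With the replicate number as a block all 5 passed, at limma adjusted p = 0.00035 for Olfr619, 0.00447 for Olfr641, 0.0152 for Olfr635, 0.00506 for Olfr609 and 0.0245 for Olfr624, and 25 members were decreased. The share of all OR probe sets called in the blocked fit is not given here. The 6.18% above belongs to the fit with genotype alone.

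Olfr624 had the lowest signal of all members by its mean over the 12 mice. It read -5.62, -4.90 and -4.50 in wild-type and -5.93, -5.34 and -5.13 in ΔJ mice, with overlapping groups (log2 fold change -0.46, SE 0.217, limma adjusted p = 0.623). Signals of different probe sets are not amounts of RNA on a common scale, and the order of members by signal says little about their abundance. The probe set of Kdm5d, a Y-linked gene that females lack, read -4.23 to -3.05 in the 7 females. In ΔJ mice 9 members had a mean within or below that range, among them the decreased members Olfr611 (-3.22), Olfr618 (-3.40), Olfr629 (-3.56) and Olfr630 (-3.49), and the means of Olfr624 and Olfr631 were below it in both genotypes. Each probe set has its own background, and whether these 9 rose above theirs was not tested.

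Among the 11 members within 1.3-fold, Olfr640 and Olfr644 differed least. Olfr640 read -1.19, -0.80 and -0.40 in wild-type and -1.01, -0.85 and -0.49 in ΔJ mice. All ΔJ mice lay inside the wild-type range, and the log2 fold change was 0.01 (SE 0.135, 95% interval -0.28 to 0.29, limma adjusted p = 0.995). Olfr644 read -1.37, -1.12 and -0.68 in wild-type and -1.44, -1.06 and -0.57 in ΔJ mice. All wild-type mice lay inside the ΔJ range, with a log2 fold change of 0.03 (SE 0.155, 95% interval -0.30 to 0.36, limma adjusted p = 0.995).

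Olfr631 read -5.22, -5.06 and -4.83 in wild-type and -5.34, -5.05 and -4.90 in ΔJ mice, and its groups overlapped (log2 fold change -0.04, SE 0.115, limma adjusted p = 0.995). The next gene but one, Olfr633, had the highest signal of the members. It read -0.70, -0.32 and 0.11 in wild-type and -0.78, -0.16 and 0.27 in ΔJ mice, so that every wild-type mouse lay within the ΔJ range (log2 fold change 0.07, SE 0.179, 95% interval -0.31 to 0.45, limma adjusted p = 0.995). The remaining members within 1.3-fold were Olfr606 (-0.25), Olfr613 (-0.32) and the Olfr617 probe set at Olfr625-ps1 (-0.24) on the J side, and Olfr632 (-0.32), Olfr643 (-0.08), Olfr645 (-0.05) and Olfr646 (-0.12) on the far side. The 95% intervals of Olfr606, Olfr613, Olfr632, Olfr645 and the Olfr617 probe set at Olfr625-ps1 reached -0.53, -0.68, -0.61, -0.41 and -0.64, so a fall beyond 1.3-fold lay within their error. The sign of the difference was not settled for Olfr631, Olfr633, Olfr640, Olfr643, Olfr644 and Olfr645, since it turned when the mice or the scaling were varied.

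Along the chromosome, decreased members stood beside others that were not called. The J side held 15 decreased members of 21, 3 lower without passing and 3 within 1.3-fold, with a median log2 fold change of -0.61. The far side held 5 of 15, 2 lower without passing and 8 within 1.3-fold, with a median of -0.32. The difference between the sides was not tested. On the J side the mean level of the 21 members was -2.22 to -1.74 in wild-type and -2.97 to -2.58 in ΔJ mice, without overlap. On the far side the mean of the 15 was -1.70 to -1.23 in wild-type and -2.21 to -1.69 in ΔJ mice, and the lowest wild-type mouse was just below the highest ΔJ mouse.

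**Figure D3:**
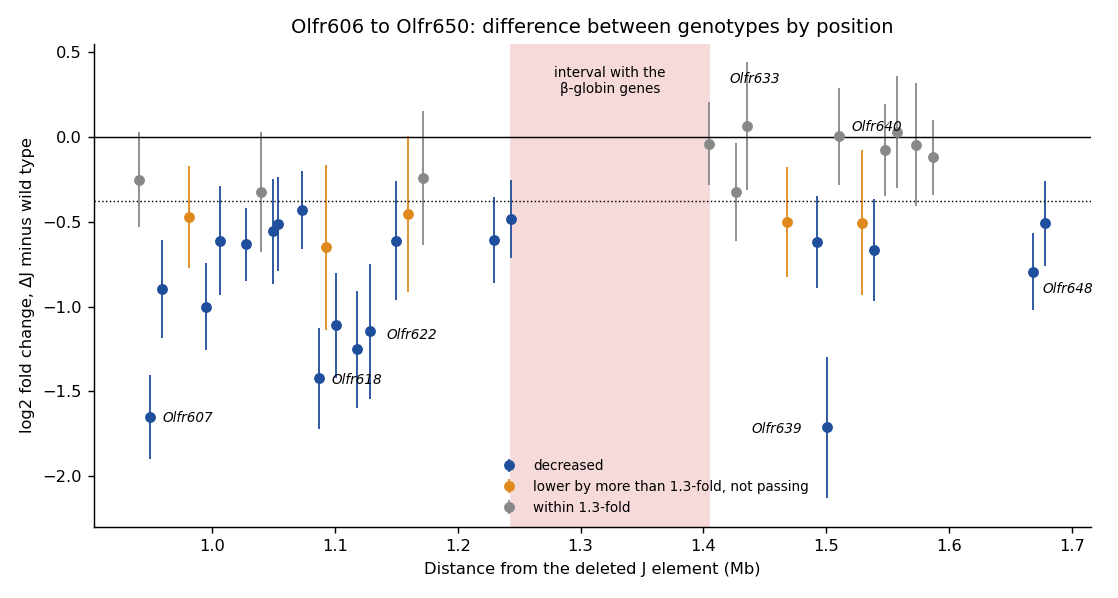
The vertical axis gives the log2 fold change of each of the 36 probe sets (ΔJ minus wild-type, n = 6 and 6, bars are 95% intervals) and the horizontal axis the distance of its gene from the J element in Mb. The dotted line marks a 1.3-fold fall, the shaded band holds the β-globin genes, and Olfr639 stands beside Olfr640 with a difference between them of 1.72 log2 units.

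Among members alone, the longest unbroken runs of decreased members were 4, from Olfr615 to Olfr618 and from Olfr620 to Olfr623. OR probe sets of the stretch that the rule did not name lie beyond these runs, at 1.21 to 1.48 Mb from the J element. With those included, Olfr243, Olfr628, Olfr629, Olfr630, Olfr69 and Olfr68 followed each other and were all decreased. Runs of 4 members that were not called lay from Olfr631 to Olfr635, the first members beyond the β-globin genes, and from Olfr643 to Olfr646. Between the β-globin genes and Olfr631 lie Olfr66 (-0.95), Olfr64 (-1.04) and Olfr65 (0.02), which are no members. Olfr66 and Olfr64 were decreased. The largest fall and the smallest difference of the stretch belonged to neighbours, since the starts of Olfr639 and Olfr640 are 9.62 kb apart on the same strand and their log2 fold changes differed by 1.72. In their first 50 coding bases the 2 genes were identical at 19 positions, near the median of 18 over 276 pairs of members. Both farthest members, Olfr648 and Olfr649, were decreased at 1.67 and 1.68 Mb from the J element. Olfr648 read -1.26, -1.11 and -0.97 in wild-type and -2.19, -1.86 and -1.75 in ΔJ mice. Its groups were clearly apart, with a log2 fold change of -0.79 (SE 0.107, limma adjusted p = 0.000108), or 57.7% of the wild-type signal.

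Across the 36 members the log2 fold change and the distance from the J element had Pearson's r = 0.364 and Spearman's rho = 0.347, as a description of members that share arrays and neighbours. Within the sides, r was 0.160 over the 21 members of the J side and -0.147 over the 15 of the far side. With the wild-type level r was -0.241. Members on the minus strand were decreased in 15 of 21 cases and those on the plus strand in 5 of 15, and on the J side alone these counts were 11 of 13 and 4 of 8. No test was made of strand.

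Members with similar coding sequence can share probes, and their probe sets then need not be separate measurements. Olfr611 and Olfr612 were identical at 49 of their first 50 coding bases, and both probe sets that carry their names were decreased, by 0.61 and 0.63 on the log2 scale. Olfr643 and Olfr644 were identical at all 50, and both were within 1.3-fold. Olfr635 and Olfr638, identical at 46 of 50, were at -0.50 without passing and at -0.62 with a call. Olfr648 and Olfr649, both decreased, were identical at 31 of 50.

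The arrays fell into sets by replicate number, since the 75th percentile of the deposited log2 signal was 8.38 to 8.42 in replicates 1 to 3 and 8.53 to 8.56 in replicates 4 to 6, with 3 mice of each genotype in each. The labels do not name these sets. Levels of 21 members and of 56.1% of OR probe sets differed between the sets (limma). The difference between genotypes was computed in each set, which use separate mice. Over the 36 members the values had r = 0.909 and rho = 0.869. In both sets 31 members were lower in ΔJ, among them all 20 called and 11 of the 16 others. The 20 were called from these same mice, so their sign in both sets is no separate support. With all mice together, 65.1% of all OR probe sets had a negative difference, which is not the same measure as lower in both sets. The share of all OR probe sets lower in both sets is not given here. The largest difference between the sets was 0.48 log2 units, in Olfr611, which was at -0.37 in replicates 1 to 3 and at -0.85 in replicates 4 to 6. With an interaction term no member differed between the sets or between the sexes (limma over OR probe sets), and 1 member in each had an unadjusted p under 0.05.

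**Figure D4:**
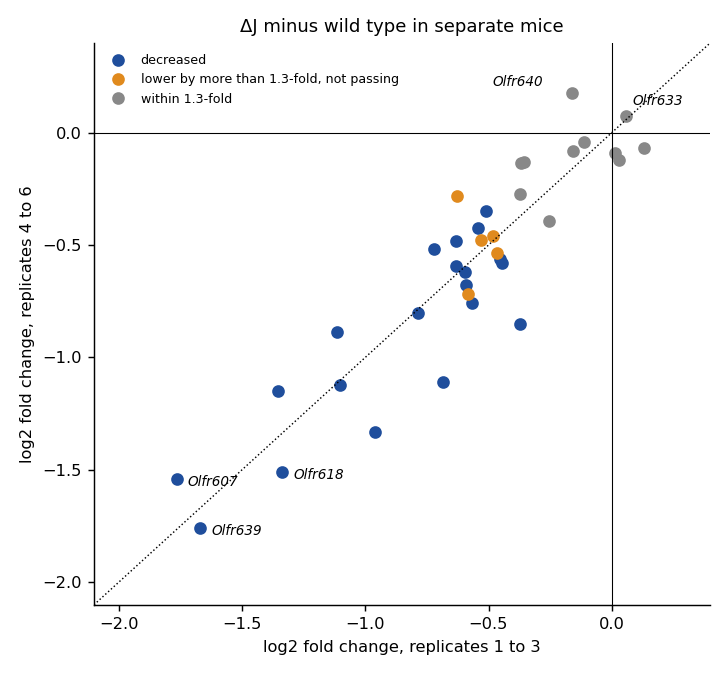
Each point is 1 of the 36 probe sets, with the log2 fold change (ΔJ minus wild-type) in replicates 1 to 3 on the horizontal axis and in replicates 4 to 6 on the vertical axis, from 3 and 3 separate mice each. The dotted line marks equal values, and Olfr607 and Olfr639 are the lowest of the 36 on both axes.

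Other genes between the first and the last member differ in kind. Of 8 intact OR probe sets there that the rule did not name, 6 were decreased: Olfr243 (-1.08), Olfr69 (-1.07), Olfr64 (-1.04), Olfr68 (-0.99), Olfr66 (-0.95) and the probe set that the study calls Olfr628 (-0.95). Olfr65 was at 0.02 and Olfr67 at -0.24, and neither passed. Neither of 2 pseudogene probe sets, Olfr634-ps1 (-0.24) and Olfr636-ps1 (0.03), was called. Genes that are no ORs were taken only from probe sets with a single symbol, which gave 6, without the globins Hbb-bs and Hbb-bt. Of these 6, none was called in limma over every probe set and none had an unadjusted p under 0.05. The smallest p values were those of Hbb-y, an embryonic globin (log2 fold change -0.18, limma adjusted p = 0.993), and Ubqlnl, a ubiquilin-like gene (-0.23, limma adjusted p = 0.993). In that fit 0.135% of all probe sets were called and 3.33% had an unadjusted p under 0.05.

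Beside the members, the 92 other intact class I probe sets held 53 that were decreased (57.6%), with a median log2 fold change of -0.54. The 32 from Olfr559 to Olfr605, nearer to the J element, held 22 decreased (median -0.75), and the 36 from Olfr651 to Olfr693, farther away, held 11 decreased and 1 increased (median -0.27). The members, with 20 of 36 and a median of -0.51, lay between these groups, without a test of the difference. None of 1072 class II probe sets was called.

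The genes through which ORs are expressed and signal were also followed. They included Gnal and Adcy3, the G protein and the adenylyl cyclase that act after an OR, the channel subunits Cnga2, Cnga4 and Cngb1, the chaperones Rtp1 and Rtp2, the OR gene regulators Lhx2, Ldb1 and Ebf1, and Kdm1a and Lbr, which take part in OR choice and silencing. Of 37 such genes on 41 probe sets none was called in limma over every probe set and none had an unadjusted p under 0.05. Their log2 fold changes ran from -0.24 to 0.23, with a median of -0.01. Lhx2 was at 0.00 and Gnal at -0.15.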

How the data were processed

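MOE RNA of 6 ΔJ and 6 wild-type mice was hybridised to 1 array each. Per the labels and the table itself, the authors deposited 1 log2 value per probe set (transcript cluster) and mouse, 35556 probe sets in all. Affymetrix Expression Console is named in the notes of the submitters on processing. Not given in the sources used here are its version and its methods of background correction and summarization. For the steps that followed, the study's methods name GeneSpring GX, a 75th percentile shift, and a moderated test of the OR probe sets, 1213 in all, adjusted after Benjamini and Hochberg.

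Genotype and replicate came from the labels. Each array's 75th percentile was subtracted from its deposited values, and limma 3.58.1 (lmFit, eBayes; R 4.3.3) was run on the OR probe sets with genotype as the only term. A call needed a change beyond 1.3-fold with a Benjamini-Hochberg adjusted p below 0.05. For all other genes the fit and the adjustment took in every probe set. Each mouse was 1 replicate. Precision is limited by the number of arrays, and SEs of the members' log2 fold changes were 0.102 to 0.229. Names came from the platform annotation, in which 21789 had 1 symbol, 1621 several and 12146 none, and all 36 members were found in RefSeq of GRCm38.p6. Distances were taken between the lower coordinate of each gene and the centre of the deletion. For genes on the minus strand the lower coordinate is the 3′ end.

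Both genotypes carried replicate numbers 1 to 6. Deviations from the genotype means over every probe set correlated between mice of the same number (r = 0.365, 0.294, 0.419, 0.441, 0.185 and 0.385). Mice of the same number were also in the same array set, so these correlations cannot tell matched mice from a shared array set. Sex and age were not matched by number, as in number 5, with a female ΔJ mouse of day 30 and a male wild-type mouse of day 33. A fit with the number as a block was run beside the unblocked one. The labels do not say that a number marks a litter, and 1 of 6 ΔJ and 2 of 6 wild-type mice correlated best with their own number.

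Members and gene lists were chosen with earlier results of these data known. Every member is named with its log2 fold change. Values of the mice are given for the 5 largest decreases, the called member nearest to the fold threshold, the largest difference that did not pass, the 3 smallest differences, and the highest and lowest signal. Alternatives covered the shift, quantile normalization, a filter on dim probe sets, sex, age, array set and replicate number as terms, subsets of mice, and a fit over every probe set. Heatmap, motif and sequence counts were made in Python 3.11.15.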

Additional observations from a re-analysis of the deposited data

Results flagged for a closer look

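In 3 of the 72 groups of 6 mice (36 members in each genotype), a single mouse stood so far from the others that its gap to the nearest of them, divided by the range of the group, was above Dixon's critical value for groups of 6, a limit that about 1 group in 20 passes by chance. Replicate 5 of the ΔJ mice was low in Olfr616, at -2.79 (gap ratio 0.631), and in Olfr649, at -1.89 (0.638). Replicate 3 of the wild-type mice was high in Olfr649, at -0.68 (0.748). Each of these mice was the one farthest from the other genotype, and in both genes the 2 genotypes did not overlap.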

How the results depend on the processing

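Counts moved most with the set of probe sets in the test. Fitted over every probe set, limma called 10 members decreased, 8 on the J side and 2 on the far side, and 15 were beyond 1.3-fold downward but did not pass. The members that passed there were Olfr607, Olfr608, Olfr610, Olfr612/Olfr611, Olfr618, Olfr620, Olfr620/Olfr624 at Olfr621-ps1, Olfr622, Olfr639 and Olfr648. With the replicate block, which pairs mice of the same number, 25 were decreased and 0 were lower without passing, and the array set as a term gave the same counts. The share of all OR probe sets called is not given for either fit. Members lower without passing numbered 11 in mice of postnatal day 30, 3 with age as a term, 3 without the shift, 3 in replicates 1 to 3 and 10 in replicates 4 to 6, where the far side held 3 decreased members. In mice of postnatal day 30, 17 were decreased, and in replicates 4 to 6, 14. Both subsets held fewer mice. Every mouse of day 33 was among replicates 4 to 6, so age and array set overlapped in part.

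With 1 mouse left out, 15 to 23 members were decreased (10 to 17 on the J side, 5 to 6 on the far side), 2 to 10 were lower without passing, and the median log2 fold change was -0.58 to -0.45. The lowest count, 15, came without ΔJ replicate 4 or without wild-type replicate 3. Lower without passing were 2 without ΔJ replicate 1, 10 without ΔJ replicate 4, 8 without wild-type replicate 1 and 9 without wild-type replicate 3. The calls of Olfr611, Olfr615, Olfr616, Olfr617 and Olfr623 were lost in at least 1 of these fits.

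Direction turned in members near 0. In mice of postnatal day 30 Olfr633 was at -0.097, Olfr640 at -0.0943 and Olfr644 at -0.0511. With age as a term Olfr640 was at -0.0519 and Olfr644 at -0.012, and with sex as a term Olfr644 was at -0.0079. In replicates 1 to 3 Olfr640 was at -0.163, Olfr631 at 0.0146 and Olfr645 at 0.0299, and in replicates 4 to 6 Olfr644 was at -0.0699. The median shift put Olfr631 at 0.00374 and quantile normalization put Olfr645 at 0.00433. With 1 mouse left out the ranges were -0.0746 to 0.0141 for Olfr631, -0.0314 to 0.18 for Olfr633, -0.0682 to 0.0894 for Olfr640, -0.131 to 0.00416 for Olfr643, -0.0683 to 0.111 for Olfr644 and -0.134 to 0.0485 for Olfr645. The causes of these changes were not tested. Leaving out the probe sets placed at pseudogenes, an alternative chosen after seeing the data, gave 19 decreased members of 34.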
